A study of Homo sapiens with 12 samples.

Results

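KYSE70 is an established human esophageal squamous cell carcinoma line, and RNA was sequenced from these cells after 72 h with mitoxantrone at 20 nM, after 72 h with pyrimethamine at 10 µM, or with no treatment (control). Described here is the direct comparison of the 4 mitoxantrone libraries with the 4 pyrimethamine libraries, 8 of the 12 libraries in all. The control libraries entered the fit so that the 3 groups share an estimate of the spread, and their values are given as the background. The title of the series names both drugs as NRF2 inhibitors, and the question was which genes and gene families separate cells given one drug from cells given the other. Each drug was used at a single dose and time and the doses were not matched, so a difference is between these treatments and not between the drugs at equal effect. The labels name no vehicle for the control and are silent on whether the libraries of a group are from separate cultures, so p-values measure a spread that may be technical. Nothing else separates the groups in the labels, which give no added agent or allele, and all libraries come from this cell line alone.

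Mitoxantrone is an anticancer anthracenedione that intercalates into DNA and traps type II topoisomerases on it, which leaves strand breaks. Pyrimethamine is an antifolate used against malaria and toxoplasmosis, and antifolates limit the folate needed for thymidylate and purine synthesis. NRF2, encoded by NFE2L2, is a transcription factor that KEAP1 normally hands over for degradation. When it escapes, it binds antioxidant response elements together with small MAF proteins and switches on genes for glutathione, NADPH, quinone reduction and iron storage, and squamous cancers of the esophagus often keep it active.

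Library depth was 54402117 to 74322773 counted reads under mitoxantrone, 59546265 to 72526909 under pyrimethamine and 47465335 to 94516756 in the control. All 10 squamous epithelial markers checked were expressed in enough libraries to be tested. Mitoxantrone replicate 1 stood apart a little from the other 3 mitoxantrone libraries. Its median absolute log2 gap to the mean of those 3 was 0.108. Computed in the same way for each of the others, the largest gap was 0.0741. Transcripts of the mitochondrial genome took 3.71 ± 0.321% of reads under mitoxantrone and 7.65 ± 0.621% under pyrimethamine (mean and SD, n = 4 each, p = 0.0286 by a two-sided exact permutation test, whose 70 arrangements allow no smaller value, and 0.0286 after adjustment over 4 library measures). Genes with a value of at least 10 numbered 15514 ± 93.7 under mitoxantrone and 16544 ± 93.9 under pyrimethamine (mean and SD, n = 4 each, exact permutation p = 0.0286). These libraries are bulk RNA, in which fewer cells of a state and less RNA per cell cannot be told apart.

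The drugs left KYSE70 cells with widely different transcriptomes. Of 16950 genes tested, 12956 differed (limma, adjusted p under 0.05), which is 76.4% of genes tested. Higher under mitoxantrone were 6255 genes (36.9%), and lower were 6701 (39.5%). With a difference of at least 2-fold, 1367 genes (8.06%) were higher and 2898 (17.1%) lower. Quantile normalization gave 2101 at least 2-fold higher and 2113 lower, so this imbalance depends on the scaling. Most of it lay in genes with few reads. Among the 4874 genes with a mean under 100 normalized counts, 552 were at least 2-fold higher and 1864 at least 2-fold lower. Among the 12076 genes with a mean of at least 100, called well measured from here on, 9953 differed (82.4%), 5433 of them higher (45.0%) and 4520 lower (37.4%). The libraries of the drugs did not overlap for 41.4% that lay higher and 34.5% that lay lower. At least 2-fold differences were found for 815 of these that were higher (6.75%) and 1034 that were lower (8.56%), and the median log2 difference over well-measured genes was 0.054. The tail was longer on the pyrimethamine side, since 114 well-measured genes were at least 8-fold lower under mitoxantrone and 23 at least 8-fold higher. A log2 difference is mitoxantrone minus pyrimethamine on the log2(value + 1) scale, so that a positive one means more transcript under mitoxantrone. Such a difference understates the change of genes with few counts, and folds given below are 2 raised to it. With so many genes passing the test, the size of a difference and the share of a gene group that moved one way carry more than the call itself. Where counts of a list stand alone below, the shares to set beside them are 36.9% higher and 39.5% lower of all genes tested. For symbol families they are 45.0% and 37.4% of well-measured genes. Counts near these shares show no lean of their group.

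**Figure D1:**
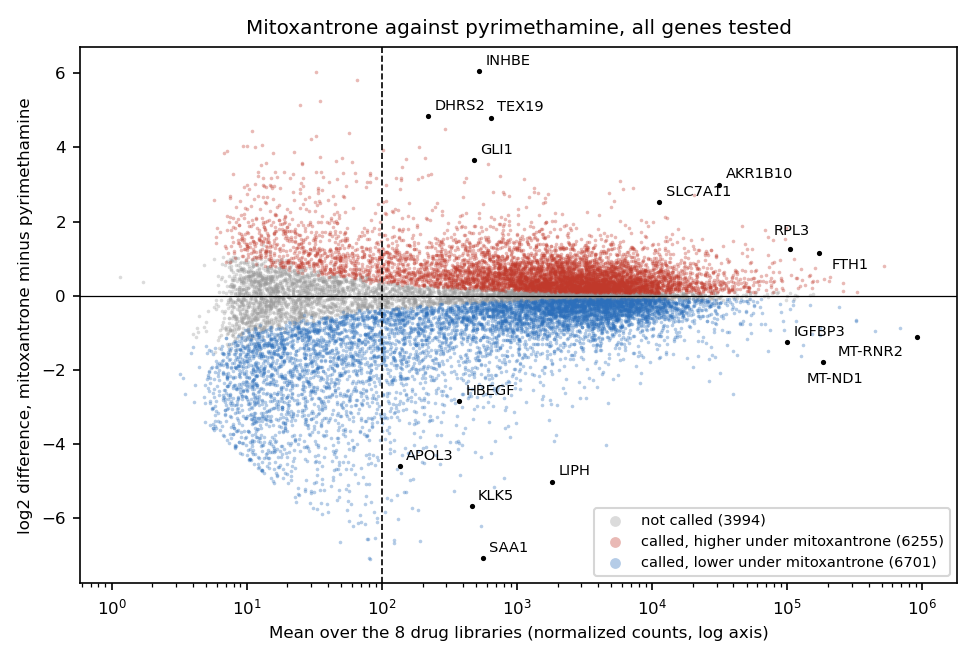
Each point is one of 16950 genes, with the mean normalized count over the 8 drug libraries on a log axis and the log2 difference, mitoxantrone minus pyrimethamine, on the vertical axis; red and blue points passed the test, grey points did not, the dashed line marks a mean of 100 and the named genes are black. The 2-fold and larger differences to its left fall mostly below 0, with 1864 lower and 552 higher genes, and to its right they number 1034 lower and 815 higher.

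Among well-measured protein-coding genes without overlap, the 15 with the largest positive differences were led by INHBE. INHBE, which encodes an activin subunit secreted under cell stress (GRCh38 chromosome 12, 57452323 to 57459280, plus strand), had 929, 1251, 902 and 1068 normalized counts in the mitoxantrone libraries and 21.4, 9.85, 17.4 and 12.05 in the pyrimethamine libraries. The control held 86.0 ± 11.9, between the groups, and the difference was 66.3-fold (log2 difference 6.05 ± 0.20 SE, adjusted p = 4.60e-17). DHRS2, a short-chain dehydrogenase (chromosome 14, 23630115 to 23645639, plus strand), had 543, 333, 429 and 391.9 normalized counts under mitoxantrone and 17.8, 13.8, 8.19 and 16.4 under pyrimethamine. No library of either group came near the other group, and the difference was 28.8-fold (log2 difference 4.85 ± 0.19 SE, adjusted p = 1.73e-15), with the control at 221 ± 7.11. TEX19, a germ cell gene (chromosome 17, 82359247 to 82363776, plus strand), had 991, 1308, 1236 and 1412 normalized counts under mitoxantrone and 32.0, 39.4, 44.0 and 61.3 under pyrimethamine, a 27.9-fold difference (log2 difference 4.80 ± 0.16 SE, adjusted p = 6.84e-17), although 43.8% of its exon bases overlap another gene's. GLI1, the transcription factor that both carries and reports Hedgehog signaling (chromosome 12, 57460135 to 57472262, plus strand), had 893, 855, 961 and 829.6 normalized counts under mitoxantrone and 68.5, 65.0, 74.7 and 67.9 under pyrimethamine. That was 12.6-fold (log2 difference 3.66 ± 0.11 SE, adjusted p = 1.30e-17), and its control level of 218 ± 29.8 lay between the drugs. By these positions GLI1 begins just downstream of INHBE on the same strand. Whether transcripts of INHBE add to the counts of GLI1 was not tested. CDH4, which encodes the adhesion protein R-cadherin, had 1007, 1269.8, 1115 and 1107 normalized counts under mitoxantrone and 105, 87.7, 92.1 and 96.4 under pyrimethamine, a 11.7-fold difference. GNAZ, a G protein alpha subunit, had 2107, 1932, 2039.8 and 2006 normalized counts under mitoxantrone and 231, 257, 197 and 224 under pyrimethamine, 8.90-fold. The other well-measured protein-coding genes among the 15 highest were WSCD2 (log2 difference 4.49), HOXC4 (4.02), GPC6 (3.92), CEND1 (3.29), NECAB2 (3.24), CCDC106 (3.22), CYP4F3 (3.21), SBSPON (3.18) and SRXN1. Without pyrimethamine replicate 4, the log2 difference of SRXN1 was 2.56 in place of 3.17. HOXC4 is a homeobox factor, GPC6 a heparan sulfate proteoglycan and CYP4F3 a fatty acid hydroxylase.

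The 15 with the largest negative differences were led by SAA1. SAA1, an acute-phase apolipoprotein (chromosome 11, 18266174 to 18269977, plus strand), had 1209, 1122, 1082 and 1017 normalized counts under pyrimethamine and 2.07, 5.72, 21.0 and 8.97 under mitoxantrone. The spread under mitoxantrone was wide at such low values, yet the highest of those libraries was far under the lowest pyrimethamine library (log2 difference -7.08 ± 0.34 SE, adjusted p = 3.35e-14), and the control held 503 ± 55.0. KLK5, the protease that starts the shedding cascade of the epidermis (chromosome 19, 50943303 to 50953093, minus strand), had 891, 880.0, 944 and 902 normalized counts under pyrimethamine and 12.4, 10.5, 28.5 and 20.6 under mitoxantrone, 51.1-fold lower under mitoxantrone (log2 difference -5.68 ± 0.20 SE, adjusted p = 1.92e-16). LIPH, a membrane lipase that makes lysophosphatidic acid (chromosome 3, 185506262 to 185552613, minus strand), was the most abundant of the 15 genes with the largest negative differences and had 3376, 3513, 3499 and 3728 normalized counts under pyrimethamine and 90.9, 131, 89.1 and 130.0 under mitoxantrone. Its difference of 32.3-fold (log2 difference -5.01 ± 0.099 SE, adjusted p = 2.41e-20) compared with a control level of 1872 ± 61.2, below the pyrimethamine and above the mitoxantrone libraries. IGFL1, a secreted factor of skin, had 755, 629.7, 620.2 and 666 normalized counts under pyrimethamine and 15.5, 15.3, 17.3 and 17.0 under mitoxantrone, and the mitoxantrone libraries were tight around their low level (38.6-fold). NR4A3, an immediate early nuclear receptor, had 312, 246, 309 and 274 normalized counts under pyrimethamine and 7.23, 3.82, 4.95 and 10.8 under mitoxantrone (log2 difference -5.30 ± 0.26 SE, adjusted p = 4.02e-14). IL7R, the interleukin 7 receptor, had 213, 207, 204 and 234 normalized counts under pyrimethamine and 1.03, 9.54, 6.18 and 2.69 under mitoxantrone, and KRTAP3-1, a hair keratin-associated protein, had 997, 1148, 1071 and 1068 normalized counts under pyrimethamine and 21.7, 15.3, 13.6 and 7.17 under mitoxantrone. MAP6, which stabilizes microtubules, had 1386, 1369, 1378 and 1166 normalized counts under pyrimethamine and 32.0, 60.1, 35.9 and 24.2 under mitoxantrone. ADGRF4, SERPINA9, MAP3K7CL, LCE1C, GCNT3, MAB21L4 and RAET1G completed the 15, with log2 differences of -6.60, -6.59, -6.03, -5.83, -5.77, -5.73 and -4.93, and each of these 7 had mitoxantrone libraries below 20 normalized counts. Leaving out mitoxantrone replicate 1, which had no read of ADGRF4, gave -5.95 for that gene, and leaving out mitoxantrone replicate 4, which had none of MAP3K7CL, gave -5.37. A pseudocount of 10 in place of 1 shrank such differences, to -5.93 for SAA1, -5.07 for KLK5 and 5.39 for INHBE. LCE1C is a late cornified envelope protein and RAET1G a ligand for the NKG2D receptor of killer cells.

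**Figure D2:**
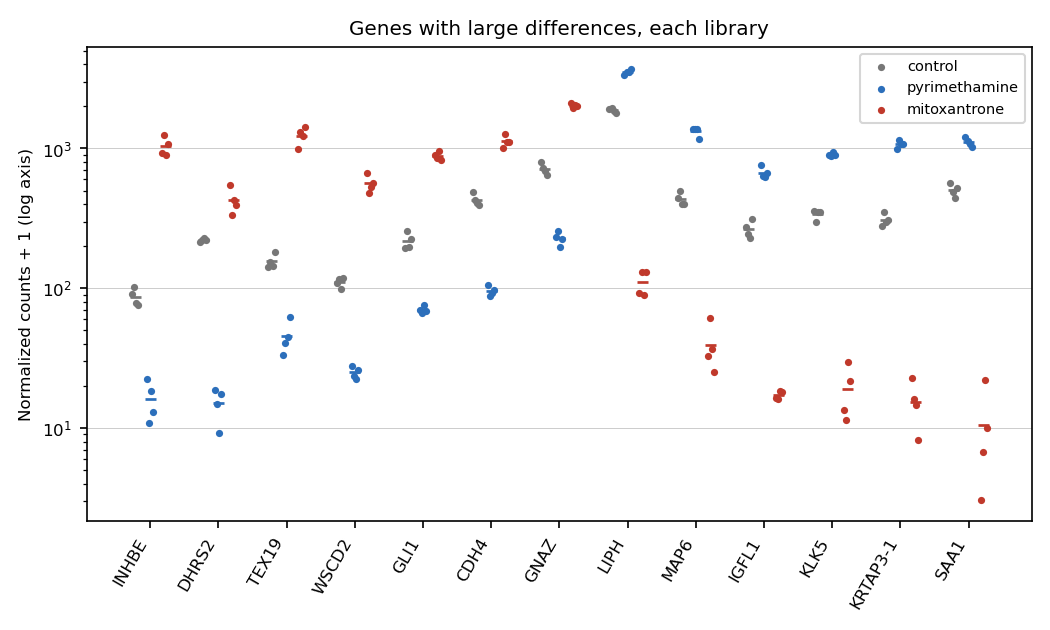
Normalized counts plus 1 on a log axis in each of the 12 libraries for 13 genes with large differences, grey for control, blue for pyrimethamine and red for mitoxantrone, with a short bar at each group's mean. INHBE to GNAZ lie higher and LIPH to SAA1 lower in every mitoxantrone library than in every pyrimethamine library.

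Among the most abundant transcripts, 10 were taken as the highest-expressed genes with at least a 2-fold difference. RPL3, a protein of the large ribosomal subunit, had 133822, 152548, 153390.0 and 151063 normalized counts under mitoxantrone and 63690.5, 61032, 60504 and 63128 under pyrimethamine. TUBB, a beta-tubulin, had 150837, 150901, 151972 and 143863 normalized counts under mitoxantrone and 74523, 75413, 74485 and 74291 under pyrimethamine. Both were higher in every mitoxantrone library, by 2.38-fold and 2.00-fold. FTH1, the ferritin heavy chain that stores iron, was 2.24-fold higher, but 62.4% of its exon bases overlap another gene's exons and its reads could be split between them. IGFBP3, a secreted carrier of insulin-like growth factors, had 141613, 147390.0, 138550.0 and 135831 normalized counts under pyrimethamine and 65050.5, 54650.4, 59274 and 59478 under mitoxantrone, 2.37-fold lower under mitoxantrone. The other 6 were transcripts of the mitochondrial genome, all lower: MT-RNR1, MT-RNR2, MT-ND1, MT-ND2, MT-ND5 and MT-CYB. Quantile normalization brought the log2 difference of MT-RNR2 from -1.11 to -0.30, under 2-fold.

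NRF2 target genes stood higher under mitoxantrone than under pyrimethamine as a broad group. Of 53 tested, 44 were higher, beside 36.9% of all genes tested, and 6 were lower, beside 39.5%. At least 2-fold higher were 22, beside 8.06% of all genes, and none was at least 2-fold lower. The 3 not called were BLVRB, AKR1B1 and SQSTM1, with log2 differences of 0.061, 0.029 and -0.069. SQSTM1, an autophagy receptor, was lower without mitoxantrone replicate 2 (adjusted p = 0.0381) and under the 3 other scalings of libraries, by the upper quartile with -0.13 (adjusted p = 0.00393). The median log2 difference of the NRF2 list was 0.74, beside -0.024 over all genes tested. Against the control, the list's median was 0.61 for mitoxantrone and -0.27 for pyrimethamine, 2 comparisons that share the 4 control libraries.

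NFE2L2, the gene of NRF2 (chromosome 2, 177227595 to 177392697, minus strand), had 8409.5, 7366, 7998 and 7826 normalized counts under mitoxantrone and 4447, 4772, 4445 and 4436 under pyrimethamine, 1.74-fold more under mitoxantrone (log2 difference 0.80 ± 0.043 SE, adjusted p = 2.37e-13). The groups did not overlap, and the control at 4879 ± 189 was close to the pyrimethamine libraries. KEAP1, whose protein targets NRF2 for degradation (chromosome 19, 10486120 to 10503741, minus strand), was also higher, with 12487, 12302, 12378 and 12277 normalized counts under mitoxantrone and 10010.2, 9573, 9323 and 8983 under pyrimethamine (log2 difference 0.39 ± 0.037 SE, adjusted p = 3.54e-09). CUL3, the ubiquitin ligase scaffold that works with KEAP1, had a log2 difference of 0.51. The small MAF partners went different ways: MAFG was higher (1.19), MAFK (-0.88) and MAFF (-1.56) were lower. BACH1, a repressor that competes with NRF2 at its sites, was lower (-0.54).

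The promoter of CYP4F11 is shown as an example of a target with an antioxidant response element core, because it had the largest difference among the well-measured NRF2 list members whose RefSeq window holds that motif. CYP4F11 encodes a fatty acid and vitamin K hydroxylase. The window runs from 250 bases before to 50 bases after the RefSeq start of the gene, and lies at chr19:15934818-15935117 (GRCh38.p14, minus strand). Capitals mark the match to TGACNNNGC, which is on the strand opposite to the one printed.
CYP4F11: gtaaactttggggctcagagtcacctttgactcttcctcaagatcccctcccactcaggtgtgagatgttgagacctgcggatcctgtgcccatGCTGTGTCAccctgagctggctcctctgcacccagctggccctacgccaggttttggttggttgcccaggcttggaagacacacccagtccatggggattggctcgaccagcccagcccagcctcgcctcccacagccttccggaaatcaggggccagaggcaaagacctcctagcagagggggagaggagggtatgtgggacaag
The motif, searched on both strands, was in 13 of the 38 NRF2 list members that had a window and in 13.3% of all 35116 windows.

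CYP4F11 itself was 4.50-fold higher under mitoxantrone (log2 difference 2.17 ± 0.056 SE, adjusted p = 1.27e-18). Among reductases, AKR1B10, which reduces retinal and reactive aldehydes (chromosome 7, 134527592 to 134541408, plus strand), had 59522, 50963, 57964 and 54996 normalized counts under mitoxantrone and 7349.9, 6852, 6886 and 6929 under pyrimethamine. The groups were far apart (7.96-fold, log2 difference 2.99 ± 0.043 SE, adjusted p = 2.40e-22), and the control level was 11516 ± 373. The symbol family AKR was the highest of all 311 families with at least 6 well-measured members, with 7 of 9 members higher and a median log2 difference of 1.83. The near-identical AKR1C1, AKR1C2 and AKR1C3 had 1.87, 1.83 and 1.99, and reads could be split between these paralogs. NQO1, the quinone reductase that is the usual readout of NRF2 (chromosome 16, 69706996 to 69726951, minus strand), differed less, with 38629, 41499, 42765 and 42383 normalized counts under mitoxantrone and 26415, 25342, 25976 and 27433 under pyrimethamine (1.57-fold, log2 difference 0.65 ± 0.038 SE, adjusted p = 1.21e-12). Its control level of 27036 ± 675 was close to that under pyrimethamine.

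For glutathione, the cystine importer SLC7A11 (chromosome 4, 138164097 to 138242349, minus strand) had 22736, 18226, 18476 and 17743 normalized counts under mitoxantrone and 3310.0, 3384, 3112 and 3506 under pyrimethamine. This was 5.77-fold (log2 difference 2.53 ± 0.065 SE, adjusted p = 1.27e-18), with the control at 5183 ± 401. GCLM, the modifier subunit of the first enzyme of glutathione synthesis, had a log2 difference of 1.16, its catalytic partner GCLC 0.71 and the glutathione reductase GSR 0.63. The wider list of glutathione enzymes did not share this: 10 of 21 were higher and 8 lower, the transferases GSTM3 (-0.56), MGST3 (-0.73) and GSTK1 (-1.17) among the latter, and the median of 0.016 turned negative with libraries scaled to an equal total (-0.028) or by the upper quartile (-0.042).

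The thioredoxin system was split in the same way. TXNRD1, the cytosolic thioredoxin reductase, had 107976, 94610.3, 99734 and 98113 normalized counts under mitoxantrone and 55734, 53921, 52786 and 55106 under pyrimethamine (0.88 on the log2 scale), and TXN, its substrate thioredoxin, had 0.67. SRXN1, which repairs oxidized peroxiredoxins, had 433, 147, 91.5 and 324 normalized counts under mitoxantrone and 46.3, 19.7, 45.0 and 5.48 under pyrimethamine. These libraries were uneven within both groups, and 85.0% of the exon bases of SRXN1 overlap another gene, so its value of 3.17 is uncertain. TXNIP, which binds and inhibits thioredoxin, had 17268, 17277, 16636 and 17654 normalized counts under pyrimethamine and 5883, 5221, 5425 and 5368 under mitoxantrone, 3.15-fold lower under mitoxantrone (log2 difference -1.65 ± 0.049 SE, adjusted p = 1.17e-17), and the control was lower than either drug at 2553 ± 200.4. The glutaredoxins GLRX (-1.81) and GLRX2 (-0.34) were lower too.

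HMOX1, heme oxygenase 1 (chromosome 22, 35380361 to 35394214, plus strand), had 3988, 4779, 4466 and 4538 normalized counts under mitoxantrone and 1633, 1597, 1509.7 and 1368 under pyrimethamine, 2.91-fold higher under mitoxantrone (log2 difference 1.54 ± 0.058 SE, adjusted p = 5.05e-16), with the control at 3254 ± 135. Its constitutive relative HMOX2 was lower (-1.24). Of 12 iron handling genes tested, 9 were higher, the ferric reductase STEAP3 (1.44) and the transferrin receptor TFRC (0.64) among them, and 3 were lower, namely HMOX2, the iron-sensing aconitase ACO1 (-0.45) and the ferritin receptor NCOA4 (-0.19). Genes of NADPH supply and the pentose phosphate pathway were higher in 12 of 16 cases, beside 36.9% of all genes tested. The cytosolic isocitrate dehydrogenase IDH1 (1.47) and the pentose phosphate enzyme PGD (1.07) led them. The mitochondrial IDH2 was the exception that passed the test downward (-0.78). Of 30 xenobiotic enzymes tested, 18 were higher and 9 lower, beside 36.9% and 39.5% of all genes tested. The lower ones included DHRS9 (-4.50), NAT1 (-2.18) and DHRS3 (-1.86), an acetyltransferase and a pair of retinoid-metabolizing dehydrogenases.

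**Figure D3:**
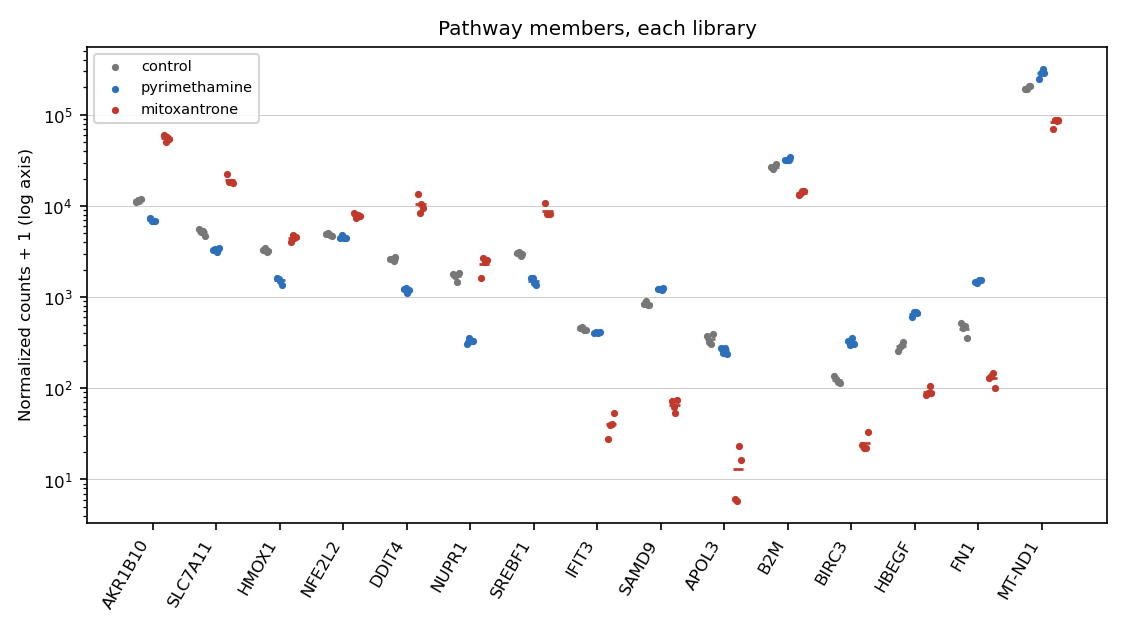
Normalized counts plus 1 on a log axis in each of the 12 libraries for 15 genes of the pathways described, grey for control, blue for pyrimethamine and red for mitoxantrone, with a short bar at each group's mean. From AKR1B10 to SREBF1 the 4 red points lie above the 4 blue ones, and from IFIT3 to MT-ND1 they lie below them.

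Genes of the integrated stress response, in which a phosphorylated eIF2 lets the factor ATF4 be translated and switch on amino acid genes, were higher more often than lower. Of 22 tested, 15 were higher under mitoxantrone, beside 36.9% of all genes tested, and 7 lower, beside 39.5%, with a median log2 difference of 0.78. The median was 0.48 for mitoxantrone and -0.28 for pyrimethamine against the shared control libraries. ATF4 itself had a log2 difference of 2.70. DDIT4, an mTOR inhibitor (chromosome 10, 72273920 to 72276036, plus strand), had 13489, 8346, 10581 and 9412 normalized counts under mitoxantrone and 1229, 1251, 1117 and 1202 under pyrimethamine. That is 8.58-fold (log2 difference 3.10 ± 0.090 SE, adjusted p = 8.78e-18), the control was at 2646 ± 100.2, and 41.2% of its exon bases overlap another gene's. NUPR1, a stress-induced chromatin protein, had 1604, 2714, 2424 and 2576 normalized counts under mitoxantrone and 307, 358, 326 and 331 under pyrimethamine (6.90-fold). For NUPR1 the control at 1712 ± 181 overlapped the mitoxantrone libraries, while the pyrimethamine libraries were far below both. The pseudokinase TRIB3 (1.92) and the glutathione-degrading CHAC1 (1.29) were also higher. ATF3 (-1.72), ATF5 (-1.11) and NDRG1 (-1.80) were lower: ATF3 had 9221, 8804, 8891 and 8668 normalized counts under pyrimethamine and 2954, 2418, 2707 and 2707 under mitoxantrone, with the control at 4944 ± 155.

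Enzymes that make amino acids and charge tRNAs moved alongside. Higher under mitoxantrone were 12 of 16 genes for making amino acids. PSAT1, of the serine pathway, had 38648, 52964, 49459.6 and 51776 normalized counts under mitoxantrone and 19311, 18121, 19285 and 19459.8 under pyrimethamine, and PYCR1, of the proline pathway, had 9024, 11996, 10594 and 10394 normalized counts under mitoxantrone and 3073, 2842, 2831 and 2998 under pyrimethamine. In both genes every mitoxantrone library exceeded every pyrimethamine library, by 2.51-fold and 3.56-fold. Glutamine synthetase, encoded by GLUL, went the other way with 65358, 63109, 63972 and 63944 normalized counts under pyrimethamine and 19017, 22302, 21661 and 21480.5 under mitoxantrone, 3.04-fold lower (log2 difference -1.60 ± 0.041 SE, adjusted p = 1.45e-18). PYCR3 (-0.35) and CTH (-0.47) were also lower. CTH lost its call under quantile normalization (adjusted p = 0.115). Of 20 cytosolic aminoacyl-tRNA synthetases tested, 16 were higher and 3 lower, from EPRS (1.504), YARS (1.40) and MARS (1.35) at the top to LARS (-0.11), FARSA (-0.17) and HARS (-0.23) at the bottom. Amino acid transporters were mixed, with 12 higher and 8 lower of 21 tested. The glycine transporter SLC6A9 had 3384, 3985, 3533 and 3314 normalized counts under mitoxantrone and 776, 764, 771 and 748 under pyrimethamine (4.63-fold). Chaperones of the endoplasmic reticulum differed less, with 16 of 27 higher and 6 lower at a median of 0.16, from -1.19 to the 1.21 of the transcription factor XBP1.

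Sterol and fatty acid synthesis is driven by the SREBP factors, which leave the endoplasmic reticulum when sterols are low. Of 25 cholesterol synthesis genes, 18 were higher under mitoxantrone and 2 lower, with a median of 0.49. INSIG1, the sterol-regulated anchor that holds SREBPs back, had 3574, 2356, 2854 and 2874 normalized counts under mitoxantrone and 745, 753, 724 and 615 under pyrimethamine (4.07-fold, log2 difference 2.03 ± 0.088 SE, adjusted p = 5.77e-15). HMGCS1, which makes the precursor of mevalonate, had 24146, 17054, 19617 and 19180.2 normalized counts under mitoxantrone and 6754, 7242, 6737 and 6992 under pyrimethamine (2.86-fold). Mitoxantrone replicate 1 was the highest library for both. SC5D, a late enzyme of the pathway, was lower (-0.13), and its call was lost without mitoxantrone replicate 2 (adjusted p = 0.0983) or pyrimethamine replicate 1 (adjusted p = 0.0564). SREBF1, the gene of the fatty acid factor SREBP1 (chromosome 17, 17810399 to 17837002, minus strand), had 10858, 8243, 8254 and 8085 normalized counts under mitoxantrone and 1633, 1617, 1418 and 1361 under pyrimethamine, 5.85-fold higher (log2 difference 2.55 ± 0.075 SE, adjusted p = 1.17e-17), with the control at 3003 ± 117. SCD, the desaturase that makes oleate, had 125405, 95790.4, 102584 and 97903 normalized counts under mitoxantrone and 31341, 30868, 30499 and 30011 under pyrimethamine (3.42-fold), while ACLY, which makes cytosolic acetyl-CoA, was lower (-0.32). The fatty acid synthase gene FASN was not called at -0.031 (adjusted p = 0.77), but was lower without mitoxantrone replicate 1 (-0.18, adjusted p = 0.00108). SREBF2, the gene of the cholesterol factor SREBP2, had a log2 difference of 1.33. Its promoter window (chr22:41832855-41833154, GRCh38.p14, plus strand) is printed because it was the one window of the cholesterol list that holds the sterol regulatory element TCACNCCAC, in capitals, on the printed strand.
SREBF2: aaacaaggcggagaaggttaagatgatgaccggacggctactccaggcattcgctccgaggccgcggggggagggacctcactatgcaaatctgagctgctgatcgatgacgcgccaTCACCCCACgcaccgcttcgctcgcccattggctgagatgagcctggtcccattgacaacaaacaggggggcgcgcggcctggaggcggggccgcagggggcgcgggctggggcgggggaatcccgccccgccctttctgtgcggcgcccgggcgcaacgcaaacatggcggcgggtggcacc
Of the 18 list members with a window, 1 had the motif, and 1.13% of all windows did.

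SR proteins and hnRNPs are RNA-binding proteins that help to select exons. All 30 members of that list were higher under mitoxantrone with no overlap between the drugs' libraries, beside 33.3% of all genes tested, and 10 were at least 2-fold higher. Their log2 differences ran from 0.21 to 1.80 with a median of 0.82, which stayed at 0.74 or above under the other scalings of libraries. HNRNPA1, an abundant binder of nuclear RNA (chromosome 12, 54280193 to 54287088, plus strand), had 131430.0, 151650.0, 145304 and 143136 normalized counts under mitoxantrone and 49859, 50477, 47733 and 48966 under pyrimethamine, 2.90-fold higher (log2 difference 1.53 ± 0.043 SE, adjusted p = 4.75e-18), with the control at 84627 ± 1957. HNRNPDL, a relative of the AU-rich element binder HNRNPD, had 24011, 23646, 23972 and 24992 normalized counts under mitoxantrone and 6835, 7231, 6857 and 6916 under pyrimethamine (3.47-fold, log2 difference 1.80 ± 0.033 SE, adjusted p = 7.79e-21). SRSF4, a splicing activator, had 6093, 7486, 6641 and 6639 normalized counts under mitoxantrone and 2009.7, 2203, 2050.1 and 2100.4 under pyrimethamine (3.20-fold). In these genes the control lay between the drugs, and the list's median was 0.58 for mitoxantrone and -0.27 for pyrimethamine against it. Many of these genes make alternative transcripts that are degraded, which gene totals do not separate.

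Host genes of small nucleolar RNAs, which are spliced to release guides for ribosomal RNA modification, were higher in 20 of 22 cases with a median of 0.62. SNHG19 had 1303, 1309, 1324 and 1316 normalized counts under mitoxantrone and 305, 324, 299 and 319.8 under pyrimethamine, with library values close together in both groups, and SNHG3 had 932, 726, 878 and 878 normalized counts under mitoxantrone and 165, 236, 187 and 212 under pyrimethamine. These were 4.1996-fold and 4.27-fold differences. SNHG9 (-0.62) and SNHG20 (-0.61) were the 2 of the list that were lower. Quantile normalization ended the call of both (adjusted p = 0.31 and 0.631), and leaving out mitoxantrone replicate 2 that of SNHG20 (adjusted p = 0.0583). Outside the list, the symbol family SNHG also held SNHG26, which was lower (-0.93), and SNHG21, which was higher (2.22). Translation factors were higher in 29 of 38 cases and lower in 4. EIF4EBP1, the mTOR-controlled repressor of cap-dependent translation, had 7042, 10840.2, 9438 and 9807 normalized counts under mitoxantrone and 2437, 2229, 2219 and 2250.4 under pyrimethamine (4.02-fold), and EIF4B, a helper of the cap helicase, had a log2 difference of 1.27. EIF2B1 (-0.13), EIF3B (-0.14), EIF3I (-0.16) and EIF6 (-0.51) were lower. Of 79 genes of cytosolic ribosomal proteins, 52 were higher, but by little: the median was 0.20, and it fell to 0.083 under quantile normalization. The share of reads in these genes was 7.12 ± 0.463% under mitoxantrone and 5.98 ± 0.257% under pyrimethamine (mean and SD, n = 4 each, exact permutation p = 0.0286, the smallest possible), with replicate 1 at 6.44% the lowest of the mitoxantrone libraries.

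**Figure D4:**
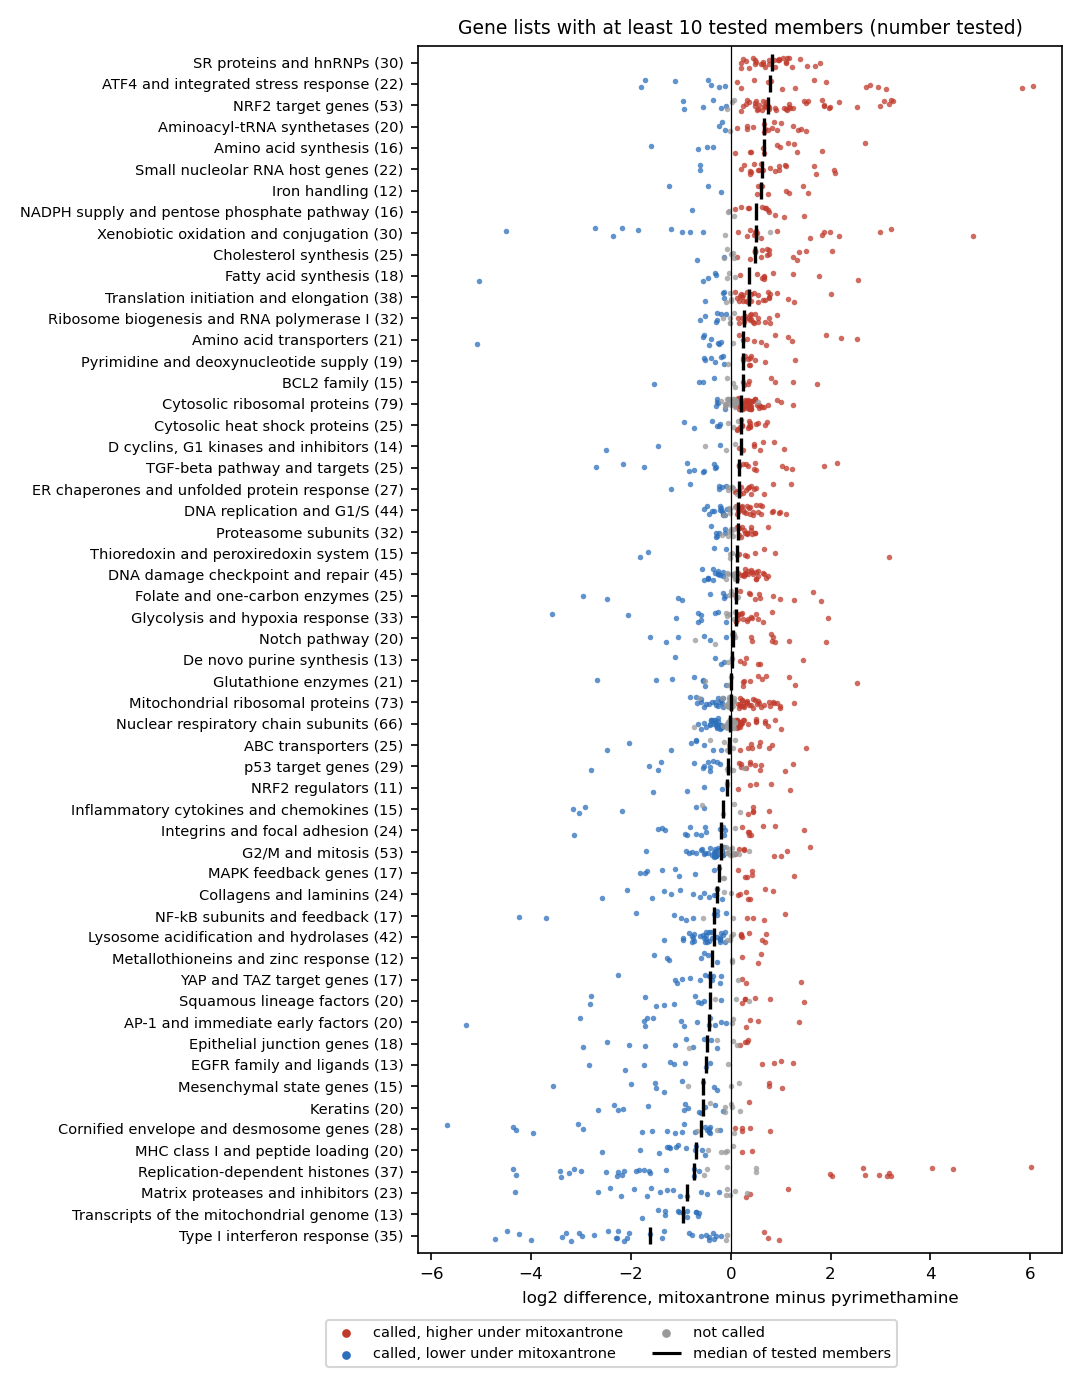
Each point is one tested member of a gene list, placed at its log2 difference, mitoxantrone minus pyrimethamine; red and blue members passed the test, grey ones did not, black bars mark the median of the tested members and the number tested stands in parentheses. Among these lists, all with at least 10 tested members, SR proteins and hnRNPs have the highest median, 0.82, and type I interferon response genes the lowest, -1.61.

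Type I interferon response genes, whose products block viruses and sense foreign RNA, were mostly lower under mitoxantrone. Of 35 that could be tested of 45 listed, 30 were lower under mitoxantrone, 3 higher and 2 not called, SP110 (-0.078) and MX1 (-0.097), and 20 were at least 2-fold lower, beside 17.1% of all genes tested. The median log2 difference was -1.61. Quantile normalization brought it to -1.06, and over the 26 well-measured members it was -0.812, nearer to 0 than for histones (-2.25) and mitochondrial transcripts (-0.955). Against the shared control libraries the list's median was -1.29 for mitoxantrone and -0.14 for pyrimethamine.

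SAMD9, an antiviral protein that stalls translation, had the largest difference among well-measured members of this list. Its promoter window (chr7:93117930-93118229, GRCh38.p14, minus strand) shows the interferon-stimulated response element core in capitals, on the printed strand.
SAMD9: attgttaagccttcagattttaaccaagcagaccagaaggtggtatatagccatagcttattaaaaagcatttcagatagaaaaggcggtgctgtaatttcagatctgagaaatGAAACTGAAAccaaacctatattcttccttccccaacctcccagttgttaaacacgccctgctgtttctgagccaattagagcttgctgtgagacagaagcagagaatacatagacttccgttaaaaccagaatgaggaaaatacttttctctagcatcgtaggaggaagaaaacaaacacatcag
That motif was in 20 of the 27 interferon list members with a window and in 3.57% of all windows. Members with the motif had a median log2 difference of -0.97 and those without it -1.39.

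SAMD9 had 1224, 1229.8, 1196 and 1266 normalized counts under pyrimethamine and 72.3, 61.1, 53.2 and 73.5 under mitoxantrone. Every mitoxantrone library was at least an order of magnitude under the pyrimethamine libraries (18.8-fold, log2 difference -4.23 ± 0.094 SE, adjusted p = 1.35e-19), and the control held 846 ± 39.9. IFIT3, which acts with its relatives on viral RNA, had 403, 414, 399 and 411 normalized counts under pyrimethamine and 26.9, 38.2, 39.6 and 52.9 under mitoxantrone. The pyrimethamine libraries were close to the control at 448 ± 15.3, and the difference was 10.4-fold (log2 difference -3.37 ± 0.14 SE, adjusted p = 5.02e-15). TRIM22, a ubiquitin ligase of the same response, had 187, 170.5, 201 and 196 normalized counts under pyrimethamine and 25.8, 16.2, 23.5 and 15.2 under mitoxantrone (9.13-fold). The 3 members that were higher under mitoxantrone were IFIH1 (0.98), which senses double-stranded RNA, the kinase EIF2AK2 (0.75) and the membrane tether BST2 (0.66). BST2 had 11394, 11208, 11214 and 10574 normalized counts under mitoxantrone and 7029, 7159, 6894 and 7026 under pyrimethamine. IFIH1 was weakly expressed, and its call was lost with edgeR (adjusted p = 0.0527) and without mitoxantrone replicate 3 (0.0796), pyrimethamine replicate 2 (0.0824) or pyrimethamine replicate 3 (0.0643).

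Antigen presentation genes were mostly lower under mitoxantrone too. Of 20 genes of MHC class I and peptide loading, 13 were lower and 2 higher, ERAP1 (0.43) and PSME1 (0.23). The 5 not called were TAP1, TAP2, TAPBP, TAPBPL and PSMB10, so part of the peptide loading genes showed no such difference. Of the 15 well-measured members, 9 were lower and 2 higher. B2M, the invariant light chain of class I (chromosome 15, 44711487 to 44718877, plus strand), had 32125, 32082, 32074 and 34132 normalized counts under pyrimethamine and 13273, 13745, 14541 and 14685 under mitoxantrone, 2.32-fold lower under mitoxantrone (log2 difference -1.21 ± 0.041 SE, adjusted p = 1.06e-16). The control at 27170.5 ± 1289.5 was nearer to pyrimethamine. HLA-C had 4379.8, 4251, 4063 and 4028 normalized counts under pyrimethamine and 1694, 1727, 1797 and 1640.3 under mitoxantrone, again without overlap, and HLA-B had 203, 172, 194 and 179.6 normalized counts under pyrimethamine and 74.4, 77.3, 82.9 and 79.8 under mitoxantrone. The HLA genes are polymorphic and alike, and reads mapped to a reference may be split between them. Class II genes were weakly expressed, with 6 of 10 tested, 5 of them lower (HLA-DQB1, HLA-DRB1, HLA-DPB1, HLA-DMA and HLA-DMB) and the master regulator CIITA not called (-0.37, adjusted p = 0.409, and 0.59 under quantile normalization). HLA-DQB1 was the one with a mean of at least 100, and had 226, 174, 216 and 181 normalized counts under pyrimethamine and 17.6, 13.4, 8.66 and 12.6 under mitoxantrone. The 4 tested apolipoprotein L genes, an innate immune family that lies in a cluster, were all lower. APOL3 had 278, 245, 277 and 238 normalized counts under pyrimethamine and 5.16, 4.77, 22.3 and 15.2 under mitoxantrone, with the control at 347 ± 40.0, APOL6 had 381, 340.0, 399 and 329.6 normalized counts under pyrimethamine and 29.95, 56.3, 68.0 and 33.2 under mitoxantrone, and APOL1 had a log2 difference of -4.55. APOL2, with a log2 difference of -1.19, moved least.

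Of 17 NF-kB subunits and feedback genes, 11 were lower under mitoxantrone and 4 higher, beside 39.5% and 36.9% of all genes tested. BIRC3, an apoptosis inhibitor and NF-kB target (chromosome 11, 102317450 to 102339403, plus strand), had 326, 299, 358 and 302 normalized counts under pyrimethamine and 22.7, 21.0, 21.0 and 32.3 under mitoxantrone, 12.9-fold lower under mitoxantrone (log2 difference -3.69 ± 0.16 SE, adjusted p = 5.85e-15), and the control at 123 ± 9.82 lay between. TNFAIP2 (-4.24) and the adhesion receptor ICAM1 (-1.89) were lower as well. NFKBIA, the inhibitor that holds NF-kB in the cytoplasm, was higher with 2487, 2235, 2453 and 2516 normalized counts under mitoxantrone and 1243, 1068, 1192 and 1038 under pyrimethamine (1.10), as were NFKB1 (0.66), BCL3 (0.44) and NFKBIB (0.33). Acute-phase and complement genes were lower in 8 of 9 cases, among them the protease C1S with 3429, 3341, 3254 and 3101 normalized counts under pyrimethamine and 842, 767, 795 and 855 under mitoxantrone and ceruloplasmin, encoded by CP (-3.10). Of inflammatory cytokines and chemokines, 15 of 30 could be tested, with 5 higher and 6 lower. CXCL1 (0.76), CCL2 (0.45), IL1A (0.44), IL1B (0.44) and LIF (0.36) were higher, whereas the receptor antagonist IL1RN (-3.15) and IL18 (-0.69) were lower. The call of IL1B was lost without mitoxantrone replicate 3 (adjusted p = 0.0931) or pyrimethamine replicate 1 (0.0572), 2 (0.0659) or 3 (0.0501), and that of CCL2 without mitoxantrone replicate 4 (0.0623) or pyrimethamine replicate 1 (0.0632). The list's median of -0.15 changed sign under quantile normalization, so no direction is given for that list.

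Squamous lineage factors, keratins and cornified envelope genes were each lower more often than higher under mitoxantrone, with exceptions among the factors. SOX2, a lineage factor often amplified in squamous cancer (chromosome 3, 181711924 to 181714436, plus strand), had 20320.5, 17329, 17581 and 18471 normalized counts under mitoxantrone and 6777, 6518, 6894 and 6279 under pyrimethamine, 2.78-fold higher under mitoxantrone (log2 difference 1.48 ± 0.050 SE, adjusted p = 1.06e-16). TP63, the p53 relative that maintains basal cells, had 22035, 22497, 22271 and 22459.8 normalized counts under mitoxantrone and 12234, 13079, 12933 and 13198 under pyrimethamine (0.80). Both controls lay between, at 9305 ± 604 and 16791 ± 439. KLF4 (-1.14) and GRHL1 (-1.51), factors of epithelial differentiation, were lower, as was TFAP2C (-1.35), and 11 of 20 lineage factors in all were lower and 6 higher. Keratins were lower in 13 of 20 cases and higher in 1, KRT81 (0.37). The KRT81 libraries overlapped, and its adjusted p was 0.058, 0.103 and 0.0903 without mitoxantrone replicate 2, 3 and 4, and 0.121 and 0.0721 without pyrimethamine replicate 2 and 4. KRT75, a hair follicle keratin, had 743, 795, 793 and 753 normalized counts under pyrimethamine and 176, 279, 282 and 256 under mitoxantrone, with the control above both at 1722 ± 208, and KRT4, of esophageal surface cells, had 687, 746, 654 and 719 normalized counts under pyrimethamine and 109, 166, 149.7 and 132 under mitoxantrone (5.06-fold lower). Cornified envelope and desmosome genes were lower in 20 of 28 cases, ECM1 (-3.06) and S100A16 (-3.95) among them. The desmosomal cadherin DSG3 was higher with 25091, 20129, 21532 and 20551 normalized counts under mitoxantrone and 13448, 13088, 11627 and 12404 under pyrimethamine (0.78), as were DSG2 (0.22), PKP3 (0.22), PKP2 (0.077) and the protease inhibitor SPINK5 (0.38). The PKP2 difference was small and its call was lost under 12 alternatives, with adjusted p-values up to 0.799, among them leaving out any 1 of mitoxantrone replicates 1 to 3 (0.0642, 0.0503 and 0.107) or pyrimethamine replicates 1, 3 and 4 (0.146, 0.0661 and 0.0881).

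Junction and matrix genes were mostly lower. CLDN1, a tight junction claudin, had 3534, 3659, 3466 and 3182 normalized counts under pyrimethamine and 268, 674, 479 and 461 under mitoxantrone, 7.72-fold lower (log2 difference -2.95 ± 0.16 SE, adjusted p = 2.44e-13), and mitoxantrone replicate 1 was the lowest library. E-cadherin, encoded by CDH1, had a log2 difference of -1.11. FN1, the matrix protein fibronectin (chromosome 2, 215360440 to 215436172, minus strand), had 1477, 1445, 1554 and 1529 normalized counts under pyrimethamine and 130.1, 136, 147 and 99.5 under mitoxantrone, 11.7-fold lower under mitoxantrone (log2 difference -3.55 ± 0.11 SE, adjusted p = 4.04e-17), with the control at 450.3 ± 68.1. LAMA3, a chain of the basement membrane laminin of epithelia, was lower (-2.08). Integrin ITGA3, which binds that laminin, was higher with 9085, 9279, 8812 and 8667 normalized counts under mitoxantrone and 3315, 3240.1, 3140.1 and 3206 under pyrimethamine (2.78-fold). ZYX, the focal adhesion protein zyxin, had 518, 484, 515 and 522 normalized counts under pyrimethamine and 42.3, 70.6, 75.5 and 47.5 under mitoxantrone (8.76-fold lower). Of 23 matrix proteases and inhibitors, 15 were lower and 3 higher, namely the sheddases ADAM8, ADAM9 and ADAM17. TIMP3, an inhibitor of metalloproteinases, had 12804, 12561, 12537 and 12094 normalized counts under pyrimethamine and 3754, 4798, 4150.1 and 3945 under mitoxantrone. Of 8 fibroblast markers, 4 could be tested, 3 of them lower and COL3A1 higher (0.69), and the summed level of the list was 8886 to 10757 normalized counts under mitoxantrone and 19471 to 20913 under pyrimethamine. For endothelial markers (3 of 8 tested, CLDN5 at 0 in all libraries) it was 187 to 258 and 1136 to 1233, and for leukocyte markers (2 of 9 tested) 4.48 to 14.5 and 58.1 to 74.8. In the control these 3 sums were 23039 to 23976, 984 to 1112 and 30.3 to 71.1. The sum of the 10 squamous epithelial markers was also lower under mitoxantrone. It was 361471 to 390160 there, 479066 to 503329 under pyrimethamine and 403817 to 428806 in the control. The part of these marker lists in the result was not tested.

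Of 13 genes of the EGFR family and its ligands, 8 were lower under mitoxantrone and 4 higher, beside 39.5% and 36.9% of all genes tested. EGFR, the epidermal growth factor receptor, had 49276, 42338, 39938 and 36994 normalized counts under mitoxantrone and 22729, 23387, 22797 and 22718 under pyrimethamine (1.83-fold higher). HBEGF, a ligand of that receptor (chromosome 5, 140332843 to 140346631, minus strand), had 608, 679, 687 and 661 normalized counts under pyrimethamine and 82.6, 88.7, 105 and 87.0 under mitoxantrone, 7.203-fold lower under mitoxantrone (log2 difference -2.85 ± 0.10 SE, adjusted p = 3.84e-16), and the control at 291 ± 28.6 lay between. AREG (-0.91) and TGFA (-0.50), other ligands, were also lower, as was the receptor ERBB3 (-1.74), and the inhibitory receptors LRIG1 (1.26) and LRIG3 (0.999) were higher. MAPK feedback genes were lower in 9 and higher in 6 of 17 cases, beside 39.5% and 36.9% of all genes tested. Among the phosphatases, DUSP5 had 1624, 1646, 1697 and 1713 normalized counts under pyrimethamine and 459.6, 622, 539 and 487 under mitoxantrone (3.19-fold lower), DUSP4 -1.37 and DUSP10 -1.81. The symbol family DUSP had 11 of 17 well-measured members lower and 6 higher, beside 37.4% and 45.0% of well-measured genes, and a median of -0.73. AP-1 and immediate early factors were lower in 14 of 20 cases. FOSB had 1440.1, 1521, 1506 and 1440.0 normalized counts under pyrimethamine and 158, 229.9, 173 and 175 under mitoxantrone (8.07-fold lower), but EGR1, another early response factor, was higher with 4638, 4867, 4663 and 4642 normalized counts under mitoxantrone and 1765, 1835, 1942 and 1720.4 under pyrimethamine (2.59-fold). Targets of the YAP and TAZ coactivators were lower in 13 of 17 cases, with CCN2, a matricellular protein, at 464, 514, 490.3 and 463 normalized counts under pyrimethamine and 117, 95.4, 68.0 and 129 under mitoxantrone. The ID proteins, which block differentiation factors and report BMP signaling, were higher: ID3 had 20798, 19445, 21091 and 20264 normalized counts under mitoxantrone and 4714, 4656, 4752 and 4531 under pyrimethamine (4.37-fold), ID1 1.88 and ID2 1.22. The ligands BMP4 (-2.17), INHBA (-2.70) and TGFB2 (-1.73) were lower, so the TGF-beta list as a whole had 14 members higher and 11 lower. HEY1, a Notch and BMP target, had 3759, 3403, 3795 and 3623 normalized counts under mitoxantrone and 1016, 907, 969 and 961 under pyrimethamine (3.78-fold higher), and NOTCH2 was lower (-1.06). HEY1 had the highest difference of the Notch list. Of its 20 members, 8 were higher, 6 lower and 6 not called, beside 36.9% higher and 39.5% lower of all genes tested.

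Among the drug targets, TOP2B, the topoisomerase II of both dividing and nondividing cells (chromosome 3, 25597905 to 25664907, minus strand), had 17298, 14428, 14711 and 14369.7 normalized counts under mitoxantrone and 6354, 7222, 6509 and 6544 under pyrimethamine, 2.28-fold higher under mitoxantrone (log2 difference 1.19 ± 0.054 SE, adjusted p = 1.17e-14), with the control at 10191 ± 471. TOP2A, the form of dividing cells (chromosome 17, 40388516 to 40417950, minus strand), had 33649, 35150.4, 33732 and 34593 normalized counts under pyrimethamine and 30074, 26634, 27630.5 and 27014 under mitoxantrone and was lower by a small margin (log2 difference -0.30 ± 0.038 SE, adjusted p = 3.16e-07). The control at 25317 ± 501 was lower than under either drug. TDP2, which removes trapped topoisomerase II from DNA ends, was higher (0.69). ABCG2, an efflux pump that exports mitoxantrone (chromosome 4, 88090264 to 88231322, minus strand), had 1624, 1619, 1609 and 1748 normalized counts under pyrimethamine and 244, 306, 320.4 and 317 under mitoxantrone, 5.57-fold lower under mitoxantrone (log2 difference -2.48 ± 0.074 SE, adjusted p = 1.57e-17). The control at 1198 ± 35.2 was above the mitoxantrone and below the pyrimethamine libraries. The ABC list had 9 members higher, the conjugate pump ABCC1 (0.76) among them, and 9 lower.

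Among the folate and nucleotide genes, TYMS, thymidylate synthase (chromosome 18, 657604 to 673578, plus strand), had 141534, 132719, 138510.0 and 141186 normalized counts under mitoxantrone and 101887, 98307, 98494 and 99299.5 under pyrimethamine (1.39-fold higher under mitoxantrone, with 46.6% of its exon bases shared with another gene). Of 25 folate and one-carbon genes, 12 were higher and 8 lower. The mitochondrial enzymes MTHFD1L (1.80) and SHMT2 (1.26) were higher, and the folate receptor FOLR1 (-2.48) and the polyglutamate hydrolase GGH (-1.05) were lower. FOLR1 had 720.0, 741, 731 and 729 normalized counts under pyrimethamine and 139, 129.7, 101 and 154 under mitoxantrone. In purine synthesis, IMPDH2, which commits IMP to guanine nucleotides, had 21286, 23526, 23428 and 21810.5 normalized counts under mitoxantrone and 8271, 8068, 8251 and 8291 under pyrimethamine (2.74-fold higher), while the other 12 genes of the list ran from -1.12 to 0.59.

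Cell cycle genes moved in both directions. G2/M and mitosis genes were lower under mitoxantrone in 32 of 53 cases and higher in 8, beside 39.5% and 36.9% of all genes tested. Their median was -0.20. Against the shared control libraries their median was 0.31 for mitoxantrone and 0.51 for pyrimethamine. KIF20A, a kinesin of cell division, had 17325, 17363, 16628 and 17429.5 normalized counts under pyrimethamine and 5953, 4821, 5414 and 5172 under mitoxantrone (3.23-fold lower, log2 difference -1.69 ± 0.047 SE, adjusted p = 5.42e-18), with the control at 7500.1 ± 198. CDK1, the mitotic kinase, had 24609, 23369.5, 24022 and 25603 normalized counts under pyrimethamine and 14639, 12574, 13749 and 14024 under mitoxantrone, and here the mitoxantrone libraries lay close to the control at 15538 ± 406. The condensin genes SMC4 (1.13) and SMC2 (1.01) and the kinesin KIF15 (1.59) were at least 2-fold higher, and all 6 well-measured members of the SMC symbol family were higher, while the KIF family of kinesins had 11 higher and 16 lower of 32. The cell cycle homology region TTTGAA was in 35 of 45 windows of the G2/M list and in 15.2% of all windows. Of 44 replication genes, all well measured, 26 were higher and 13 lower, beside 45.0% and 37.4% of well-measured genes, with a median of 0.16. MCM7, of the replicative helicase, had 35137, 36848, 35159 and 34312 normalized counts under mitoxantrone and 17142, 16559, 16141 and 15969.7 under pyrimethamine (2.15-fold). CDK4 (0.87, with 43.2% of its exon bases shared) and CCND3 (1.06) were higher, whereas CCND2 was lower with 1186, 1205, 1107 and 1115 normalized counts under pyrimethamine and 238, 224, 228 and 139.9 under mitoxantrone (5.66-fold).

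Of 29 p53 target genes tested, 11 were higher and 13 lower, shares near the 36.9% and 39.5% of all genes tested. CDKN1A, the kinase inhibitor p21 (chromosome 6, 36676460 to 36687339, plus strand), had 9636, 9066, 9156 and 9279 normalized counts under pyrimethamine and 3205, 3535, 3341 and 3359 under mitoxantrone, 2.76-fold lower under mitoxantrone (log2 difference -1.47 ± 0.039 SE, adjusted p = 2.18e-18). Its control level of 6954 ± 244 lay between the drugs. TP53I3, a quinone oxidoreductase, had 2876, 2602, 2645 and 2665 normalized counts under pyrimethamine and 352, 391, 440.4 and 378 under mitoxantrone (6.91-fold lower), while BBC3, which encodes the proapoptotic PUMA, was higher with 281, 242, 230.1 and 226 normalized counts under mitoxantrone and 90.8, 119, 96.2 and 103 under pyrimethamine (2.38-fold). The 45 tested DNA damage and repair genes divided into 23 higher, 14 lower and 8 without a call. The largest positive differences among them were those of the Fanconi anemia genes FANCD2 (0.76), FANCG (0.71) and FANCE (0.67), which repair crosslinks, and no member of the DNA damage and repair list differed by 2-fold.

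Histone genes of the replication-dependent clusters, whose main transcripts end in a stem loop and not in a poly(A) tail, moved in both directions. Of 37 tested of 58 listed, 21 were lower and 11 higher under mitoxantrone, beside 39.5% and 36.9% of all genes tested. All 11 of the latter were at least 2-fold higher, beside 8.06% of all genes. The upward side lay mostly in genes with few reads: of the 15 well-measured list members, 14 were lower and 1 higher. HIST1H2BJ had 1028, 928, 1044 and 1144 normalized counts under pyrimethamine and 63.0, 53.4, 50.7 and 34.98 under mitoxantrone, and HIST1H2AG had 1759.6, 1689, 1815 and 1914 normalized counts under pyrimethamine and 184, 124, 182 and 181 under mitoxantrone. Their controls of 236 ± 47.7 and 425 ± 44.1 lay between the drugs. HIST1H4C, an H4 gene of the same cluster, had 446, 288, 325 and 274 normalized counts under mitoxantrone and 24.0, 40.4, 46.1 and 38.3 under pyrimethamine (8.82-fold higher), with the control at 51.9 ± 13.98 beside the pyrimethamine libraries. The symbol family HIST had 16 well-measured members, 14 of them lower. The sources used here do not say whether libraries were made by poly(A) selection or ribosomal depletion, and histone genes are alike, so reads may be shared between them.

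All 13 protein-coding transcripts of the mitochondrial genome were lower under mitoxantrone without overlap, beside 35.5% of all genes tested, with log2 differences from -1.78 to -0.63. MT-ND1, a subunit of complex I, had 246315, 287280.0, 322163 and 285578 normalized counts under pyrimethamine and 70543, 88279.6, 86465 and 87126 under mitoxantrone, 3.43-fold lower (log2 difference -1.78 ± 0.073 SE, adjusted p = 2.23e-15), with the control at 200746 ± 9719. Mitoxantrone replicate 1 was the lowest of its group here, and the rRNA MT-RNR1 had 183651, 183984, 200309 and 202175 normalized counts under pyrimethamine and 59463, 66305, 60369.7 and 62120.5 under mitoxantrone. Nuclear genes of the respiratory chain showed no such lean: 24 of 66 were higher, 24 lower, and the median was -0.0070. Mitochondrial ribosomal proteins had 31 members higher and 18 lower of 73 tested, beside 36.9% and 39.5% of all genes tested. Their median was 0.013, and it was negative under all 3 other scalings of libraries, to -0.044 by the upper quartile. Lysosome genes were lower in 30 of 42 cases, among them the sialidase NEU1 with 6206, 5905, 5631 and 5963 normalized counts under pyrimethamine and 2228, 2422, 2395 and 2356 under mitoxantrone (2.52-fold), the sphingomyelinase SMPD1 (-0.96) and the proton pump subunit ATP6V1D (-0.95). Cathepsins CTSC (0.70) and CTSL (0.68) and the peptidase TPP1 (0.63) were higher. MT2A, the main metallothionein, had 11394, 10839, 10908 and 10776 normalized counts under pyrimethamine and 3409, 3946, 3694 and 4034 under mitoxantrone (2.92-fold lower). Of 33 tested genes of glycolysis and the hypoxia response, 18 were higher and 10 lower, beside 36.9% and 39.5% of all genes tested. Their median was 0.11, and VEGFA and EPAS1 had the highest and the lowest difference of the list. VEGFA, the angiogenic growth factor, had 2958, 2421, 2526 and 2399 normalized counts under mitoxantrone and 671, 706, 659 and 622 under pyrimethamine (3.86-fold higher). EPAS1, which encodes HIF-2 alpha, had 762, 769.6, 750.2 and 758 normalized counts under pyrimethamine and 56.8, 59.1, 79.2 and 59.2 under mitoxantrone (11.9-fold lower).

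The longest genes differed more between the drugs than shorter ones, in both directions. The median log2 difference of the 412 well-measured protein-coding genes that span over 300 kb was 0.35, and in the other 4 length bins it was 0.030 to 0.082. Of these long genes, 79 were at least 2-fold higher and 46 at least 2-fold lower. That is 19.2% and 11.2%, beside 6.75% and 8.56% of all well-measured genes, so both tails were larger. The quartiles of the long genes were -0.40 and 0.81. Long genes were also less abundant, with a median of 1257 normalized counts beside 2003 to 2669 in the other 4 bins, and the part of abundance was not tested. Under the other scalings of libraries the median of the long genes was 0.29 to 0.33. Against the shared control it was 0.18 for mitoxantrone and -0.099 for pyrimethamine. GPC6, named above with the largest differences, spans 1180560 bases.

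**Figure D5:**
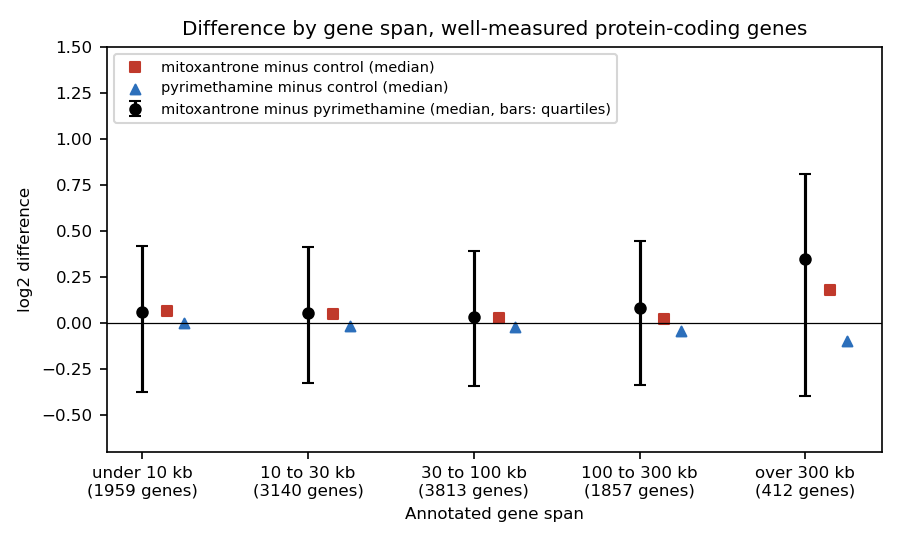
Median log2 difference of well-measured protein-coding genes by annotated gene span, black circles for mitoxantrone minus pyrimethamine with bars from the first to the third quartile, red squares for mitoxantrone minus control and blue triangles for pyrimethamine minus control. The bin over 300 kb has a median of 0.35, and the other 4 bins lie between 0.030 and 0.082.

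Part of the transcriptome was close between the drugs. For 2380 genes, 19.7% of well-measured ones, the 95% interval of the difference lay within 1.2-fold in both directions. Of 311 symbol families, 101 had a median within 0.1 of 0, while 13 were above 0.5 and 11 under -0.5. The proteasome is an example of a machine that moved little. Of 32 listed subunits, 18 were called higher and 7 lower, but none differed by 2-fold, and log2 differences ran from -0.39 to 0.75. A well-measured gene of the symbol family PSMB outside that list was at least 2-fold lower (-1.06). The 32 genes of ribosome biogenesis also held no 2-fold difference. Their range was -0.61 to 0.93, with MYC, a driver of that program, at -0.20. Cytosolic heat shock proteins, from -0.94 to 0.73, had no 2-fold difference either, and the abundant HSP90AB1 had 160363, 156054, 158015 and 153405 normalized counts under mitoxantrone and 96130.3, 94512, 91838 and 94866 under pyrimethamine.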

How the data were processed

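RNA sequencing of 12 KYSE70 libraries, 4 per group, was used. Per the submitters' processing notes, the tools were featureCounts 1.5.1, STAR 2.6.90c, FastQC 0.11.5 and cutadapt 1.12, with the builds hg38 and mm10, and which build served which step is not given in the sources used here. The deposited table holds a signal value per gene, which from its values is the authors' read count divided by 1 factor per library: all values came out as whole reads within 0.01 of a read (100%). On these recovered reads edgeR 4.0.16 called 12943 genes and DESeq2 1.42.0 called 12960. Of 58884 genes, 34033 had a read, and 58611 identifiers were found in GENCODE 29, which gave positions on GRCh38 and exon overlaps; 273 were not. Promoter windows came from RefSeq (GRCh38.p14).

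A gene was tested if 4 or more of the 12 libraries reached a value of 10. The test was run on log2(value + 1) with limma 3.58.1 (R 4.3.3), with group as the single term, a variance trend and Benjamini-Hochberg adjustment over 16950 genes, and genes were called at an adjusted p under 0.05. Other values were computed with scipy 1.17.1, pandas 2.3.3 and numpy 2.4.6 in Python 3.11.15. Reads that fall in the exons of more than 1 gene cannot be assigned from the table, and strand use in counting is not given. The script was tested on simulated data.

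The comparison and the gene lists were chosen with earlier results of these data known. Genes were named by a rule: the 15 largest differences in each direction among called, well-measured protein-coding genes without overlap, the 10 most abundant called genes with a 2-fold difference, up to 3 well-measured called members per list and direction, and 10 genes around the drugs' targets and NRF2. A further 36 genes were named after their values were seen, CYP4F11, CIITA, IFIH1, FASN, SREBF2, ATF4 and the AKR1C genes among them. Alternatives covered the pseudocount, the filter, 3 other scalings, the variance model, edgeR, DESeq2, a replicate block, the 8 drug libraries alone and leaving out each drug library. Some genes that the rule names are not reported here.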

Additional observations from a re-analysis of the deposited data

Results flagged for a closer look

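In each group of 4 libraries, a value was picked out when the gap between the highest or lowest library and the next was a larger share of the group's range than Dixon's 95% limit for 4 samples. Of 303 groups checked, over the 97 genes given above by library and 4 library measures, 29 were picked out, and chance picks about 1 in 20. No explanation was tested for any of them. Mitoxantrone replicate 1 held 7 of them, more than any other library.

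In mitoxantrone replicate 1, MT-ND1 had 70543 normalized counts, below the other 3 at 86465 to 88279.6. RPL3 had 133822 normalized counts, below the other 3 at 151063 to 153390.0. SLC7A11 had 22736 normalized counts, above the other 3 at 17743 to 18476. SREBF1 had 10858 normalized counts, above the other 3 at 8085 to 8254. TOP2B had 17298 normalized counts, above the other 3 at 14369.7 to 14711. The share of reads in mitochondrial genome transcripts was 3.23%, below the other 3 at 3.84 to 3.89%. The share of reads in the 50 highest genes was 13.5%, below the other 3 at 14.4 to 14.6%. In mitoxantrone replicate 2, EGR1 had 4867 normalized counts, above the other 3 at 4638 to 4663. HIST1H2AG had 124 normalized counts, below the other 3 at 181 to 184. In mitoxantrone replicate 3, EPAS1 had 79.2 normalized counts, above the other 3 at 56.8 to 59.2. In mitoxantrone replicate 4, BIRC3 had 32.3 normalized counts, above the other 3 at 21.0 to 22.7. CCND2 had 139.9 normalized counts, below the other 3 at 224 to 238. TUBB had 143863 normalized counts, below the other 3 at 150837 to 151972.

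In pyrimethamine replicate 1, AKR1B10 had 7349.9 normalized counts, above the other 3 at 6852 to 6929. EIF4EBP1 had 2437 normalized counts, above the other 3 at 2219 to 2250.4. In pyrimethamine replicate 2, EGFR had 23387 normalized counts, above the other 3 at 22718 to 22797. NFE2L2 had 4772 normalized counts, above the other 3 at 4436 to 4447. PSAT1 had 18121 normalized counts, below the other 3 at 19285 to 19459.8. In pyrimethamine replicate 3, KIF20A had 16628 normalized counts, below the other 3 at 17325 to 17429.5. In pyrimethamine replicate 4, ABCG2 had 1748 normalized counts, above the other 3 at 1609 to 1624. B2M had 34132 normalized counts, above the other 3 at 32074 to 32125. MAP6 had 1166 normalized counts, below the other 3 at 1369 to 1386.

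In control replicate 1, EPAS1 had 428 normalized counts, above the other 3 at 408 to 409.8. ID3 had 5752 normalized counts, below the other 3 at 6789 to 6984. In control replicate 2, ITGA3 had 5382 normalized counts, above the other 3 at 5005 to 5028. KLK5 had 295 normalized counts, below the other 3 at 348 to 355. In control replicate 3, NFKBIA had 1446 normalized counts, below the other 3 at 1709.8 to 1747. In control replicate 4, MT2A had 6994 normalized counts, above the other 3 at 6104 to 6155. SRSF4 had 3407 normalized counts, above the other 3 at 3129.9 to 3169.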

How the results depend on the processing

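Under each of the 21 alternatives in which they were tested, all 385 named genes that passed the test kept their direction, and 11 of them lost the call under at least 1 alternative. Between 12565 (without pyrimethamine replicate 3) and 12900 (without mitoxantrone replicate 1) genes differed when 1 drug library was left out, edgeR's quasi-likelihood test called 12943 genes and DESeq2 12960. Counts of genes at least 2-fold apart moved by over 1.5 times under 3 alternatives. With a mean of at least 100 required they were 815 higher and 1034 lower, in place of 1367 and 2898, where fewer genes were tested. Without a filter on low values 4547 were lower, where more genes were tested, and with quantile normalization 2101 were higher and 2113 lower, and the cause was not tested. The share of calls that were higher was 48.3%, and 44.1% to 52.5% under other scalings. The median of the purine synthesis list, 0.034, became -0.0094 with libraries rescaled to the same total, -0.023 by the upper quartile, -0.025 under quantile normalization and -0.0023 without mitoxantrone replicate 2 (-0.0023 to 0.073 over the libraries left out), and that of the cytokine list, -0.15, became 0.12 under quantile normalization. The cause was not tested. A pseudocount of 10 moved the fold of 25 named genes by over 1.5 times, and quantile normalization that of 16. Replicate numbers do not pair the libraries: deviations from the group means of same-numbered libraries correlated at -0.12 to 0.019. A replicate block called 12931 genes, 12857 of them shared with the fit without it, and 1367 at least 2-fold higher and 2901 at least 2-fold lower. For genes under 100 normalized counts, a few reads set the value, and small folds can be missed. Simulated data for this comparison held 16950 genes, and changes were given only to genes with a mean of at least 100. Among those, 35 of 50 genes changed by 1.2-fold were recovered, 47 of 50 by 1.5-fold and all 50 by 2-fold or 4-fold. In the same simulation 9 unchanged genes were called. It changed 50 genes at each fold, whereas 12956 of the 16950 genes were called in the data. Its recovery and its false calls therefore do not give the rates of this comparison. Recovery of changes in genes with a mean under 100 was not simulated.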
